A study of Mus musculus with 12 samples.

Results

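The 8 genes described here, grouped under the name of monocyte-linked genes, were followed across 4 groups of splenic conventional dendritic cells (cDCs). They were taken by symbol: Lyz2, Ace, Ear2, Wfdc17, Spn, Pglyrp1, Pou2f2 and Hmox1, which is 8 of the 55322 rows of the deposited table. They had been picked with earlier results of these data known, so their differences between groups are given as a description, with standard errors and without p-values. All 8 passed the filter of at least 1 FPKM in at least 3 libraries, which 12434 genes passed. Ace passed it only through the M-cDC2 libraries.

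The 4 groups, with 3 libraries each, were L-cDC1 and M-cDC1 among cDC1, and L-cDC2 and M-cDC2 among cDC2. The series title speaks of cDCs that arise from lymphoid cells, whereas the sample titles do not spell out L and M. The labels of all 12 libraries give the genotype as Il7r-cre; Rosa26-lsl-tdTomato, in which Cre made from the Il7r locus switches on a red reporter, while the protocol and design texts describe untreated wild-type C57BL/6J mice, kept free of specific pathogens and aged 7 to 8 weeks. They do not say which cells were sorted on the reporter or how many animals gave a library, so a p-value here reflects variation among libraries that could be technical. Totals ran from 15879864 to 24498235 reads per library. The subset labels matched the markers: Xcr1 averaged 206 ± 33 FPKM in L-cDC1 and 225 ± 24.3 FPKM in M-cDC1, against 0.88 and 1.62 FPKM in L-cDC2 and M-cDC2, and Sirpa averaged 0.826 and 0.365 FPKM in L-cDC1 and M-cDC1, against 184 ± 12 and 215 ± 14.5 FPKM in L-cDC2 and M-cDC2 (SD, n = 3 each).

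Monocytes and cDCs both descend from bone marrow progenitors, and cDC2 share more of the myeloid program with monocytes than cDC1 do. In the mouse, nonclassical monocytes, which patrol the vessel wall and need the nuclear receptor Nr4a1, express Ace, Spn, Ear2 and Pou2f2 at high level, and Lyz2 is high in monocytes, macrophages and neutrophils. None of these genes is restricted to monocytes. The 8 genes fall into secreted antimicrobial or protective proteins (Lyz2, Ear2, Wfdc17, Pglyrp1), surface proteins (Ace, Spn), a transcription factor (Pou2f2) and an enzyme of haem breakdown (Hmox1).

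The 300-base windows around the start sites (250 bases before to 50 after, RefSeq, GRCm38.p6) are printed for the 4 genes that stood furthest apart between L-cDC2 and M-cDC2. Of the 8 genes, 7 matched the promoter table, Ace with 2 windows of which the first is printed. Hmox1 was not matched. The windows lie at chr10:117282223-117282522 on the minus strand (Lyz2), chr11:105967698-105967997 (Ace), chr14:44102404-44102703 (Ear2) and chr11:83703806-83704105 (Wfdc17), the last 3 on the plus strand. Each is written 5′ to 3′ on the strand of its gene, and capitals mark matches to GAGGAA, the core bound by the myeloid factor PU.1, or to TTGCNNAA, a C/EBP motif, on either strand.
Lyz2: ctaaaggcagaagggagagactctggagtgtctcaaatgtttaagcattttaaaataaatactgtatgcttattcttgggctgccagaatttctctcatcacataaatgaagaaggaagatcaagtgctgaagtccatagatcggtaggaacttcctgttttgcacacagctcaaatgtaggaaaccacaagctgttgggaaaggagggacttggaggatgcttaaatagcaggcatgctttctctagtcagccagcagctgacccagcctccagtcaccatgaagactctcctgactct
Ace: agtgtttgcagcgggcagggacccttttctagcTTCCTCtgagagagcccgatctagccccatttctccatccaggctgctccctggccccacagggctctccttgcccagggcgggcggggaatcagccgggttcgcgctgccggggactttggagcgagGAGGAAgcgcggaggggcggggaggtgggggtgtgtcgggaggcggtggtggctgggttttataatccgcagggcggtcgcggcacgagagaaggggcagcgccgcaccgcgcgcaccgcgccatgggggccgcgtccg
Ear2: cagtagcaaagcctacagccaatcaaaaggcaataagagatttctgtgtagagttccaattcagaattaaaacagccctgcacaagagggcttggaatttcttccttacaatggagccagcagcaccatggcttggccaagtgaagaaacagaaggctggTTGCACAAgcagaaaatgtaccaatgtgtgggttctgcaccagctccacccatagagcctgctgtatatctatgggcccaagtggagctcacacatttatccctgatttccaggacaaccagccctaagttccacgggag
Wfdc17: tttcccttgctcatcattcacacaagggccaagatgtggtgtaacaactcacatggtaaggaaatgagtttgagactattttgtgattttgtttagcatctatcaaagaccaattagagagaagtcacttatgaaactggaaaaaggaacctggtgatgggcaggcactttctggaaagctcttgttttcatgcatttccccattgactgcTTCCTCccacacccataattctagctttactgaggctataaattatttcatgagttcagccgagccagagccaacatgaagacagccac
The window of Ace held 2 PU.1 cores, 217 and 89 bases before the start, that of Wfdc17 held 1, 39 bases before the start, and that of Ear2 held 1 C/EBP motif, 90 bases before the start. None of the matches overlapped another. The Pglyrp1 window held 2 PU.1 cores and that of Pou2f2 held 1, and the windows of Lyz2 and Spn and the second window of Ace held neither motif. No window of the 7 genes held the octamer ATGCAAAT or the Nr4a1 element AAAGGTCA. Among all 32851 promoter windows, 28.3% held GAGGAA, 10.8% TTGCNNAA, 1.74% ATGCAAAT and 1.51% AAAGGTCA. These matches describe the printed letters only.

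Among the secreted proteins, Lyz2, which encodes lysozyme M, an enzyme that cleaves bacterial cell walls, was the most abundant, at the 99.5th percentile of the tested genes by mean FPKM. It lies on chromosome 10 at 117113236 to 117118226 on the minus strand, in the coordinates of the table. Lyz2 had 329, 318 and 319 FPKM in L-cDC1 and 420, 418 and 474 FPKM in M-cDC1. In L-cDC2 it had 223, 351 and 182 FPKM, against 969, 1021 and 804 FPKM in M-cDC2. Every L library was below every M library of its subset, and L-cDC2 replicate 2 reached into the cDC1 range. The mean of 252 ± 88.2 FPKM in L-cDC2 was 0.271 of the 932 ± 113 FPKM in M-cDC2, a log2 difference of -1.93 (SE 0.18). Between L-cDC1 (322 ± 5.96 FPKM) and M-cDC1 (438 ± 31.5 FPKM) it was -0.44 (SE 0.18). From high to low the groups stood as M-cDC2, M-cDC1, L-cDC1 and L-cDC2, of which the last 2 overlapped.

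Ear2 (chromosome 14, 44340111 to 44340991, plus strand) encodes an eosinophil-associated ribonuclease, one of a mouse family with antimicrobial activity. Ear2 had 16.3, 17.8 and 18.5 FPKM in L-cDC1, against 23.8, 27.6 and 25.7 FPKM in M-cDC1. It had 59.5, 65.2 and 64.8 FPKM in L-cDC2, against 156, 112 and 129 FPKM in M-cDC2. No 2 groups overlapped, in the order M-cDC2, L-cDC2, M-cDC1 and L-cDC1. The log2 difference was -0.52 between L-cDC1 and M-cDC1 and -1.05 between L-cDC2 and M-cDC2 (SE 0.12 each). Of the 50-base stretches of the Ear2 transcripts, 41.5% also occur in Ear1, Ear6, Ear10 or 2 Ear pseudogenes, so its level depends on how shared reads were counted; Ear1, Ear6 and Ear10 averaged at most 0.115 FPKM in any group.

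Wfdc17 (chromosome 11, 83594817 to 83597094, plus strand) encodes a small secreted protein with a WAP four-disulfide core, a fold found in protease inhibitors. It had 4.76, 6.15 and 4.02 FPKM in L-cDC1 and 4.68, 5.35 and 4.70 FPKM in M-cDC1, which overlapped. In L-cDC2 Wfdc17 had 26.9, 18.2 and 16.7 FPKM, against 78.3, 78.7 and 55.7 FPKM in M-cDC2. Within cDC2 the groups were apart, with the highest L-cDC2 library at less than the lowest M-cDC2 library. The log2 difference was -1.75 in cDC2 and 0.0028 in cDC1 (SE 0.19 each), and the sign of the cDC1 difference turned in 6 of 18 alternatives.

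Pglyrp1 (chromosome 7, 18605256 to 18624384, plus strand), a secreted protein that binds bacterial peptidoglycan, had 4.84, 10.2 and 7.00 FPKM in L-cDC1 and 6.59, 11 and 7.56 FPKM in M-cDC1. It had 88.9, 89.3 and 86.3 FPKM in L-cDC2, against 75.5, 75.2 and 78.7 FPKM in M-cDC2. Pglyrp1 thus separated cDC2 from cDC1, and within cDC2 it was slightly higher in L libraries, with no overlap and a ratio of means of 1.15. The L minus M log2 difference was -0.19 in cDC1 and 0.20 in cDC2 (SE 0.20 each), and without L-cDC1 replicate 1 the cDC1 value was 0.039.

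Ace (chromosome 11, 105858771 to 105880790, plus strand), the angiotensin-converting enzyme, a membrane-bound peptidase, was low in all groups, at the 15.3th percentile of the tested genes. It had 0.060, 0.420 and 0.237 FPKM in L-cDC1 and 0, 0.0317 and 0.0689 FPKM in M-cDC1, the M-cDC1 values resting on 0, 3 and 8 reads. In L-cDC2 Ace had 0.381, 0.417 and 0.438 FPKM (48, 48 and 42 reads), against 4.92, 5.05 and 3.83 FPKM in M-cDC2 (637, 424 and 392 reads). M-cDC2 stood above all other libraries. L-cDC1 overlapped both L-cDC2 and M-cDC1, while L-cDC2 lay above M-cDC1 without overlap. The mean in L-cDC2, 0.412 ± 0.0286 FPKM, was 0.0896 of the 4.60 ± 0.672 FPKM in M-cDC2. The log2 difference between L-cDC2 and M-cDC2 was -1.98 (SE 0.20) with a pseudocount of 1, -3.19 with a pseudocount of 0.1 and -3.5 with limma-voom on the recovered reads. Between L-cDC1 and M-cDC1 the same settings gave 0.25 (SE 0.20), 1.22 and 3.08, where the libraries overlapped near the floor. An antisense long noncoding RNA, Gm11651, overlaps 295 bases of Ace exons in the coordinates of the table. Reads of the 2 in this overlap cannot be told apart without strand.

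Spn (chromosome 7, 126731404 to 126736995, minus strand) encodes sialophorin, or CD43, a heavily glycosylated surface protein that marks nonclassical monocytes in mouse and is also carried by T cells. It had 1.39, 0.999 and 1.18 FPKM in L-cDC1 and 0.799, 1.51 and 0.973 FPKM in M-cDC1. In L-cDC2 Spn had 3.5, 2.46 and 2.05 FPKM, against 4.51, 4.29 and 5.28 FPKM in M-cDC2. The cDC1 groups overlapped, and the cDC2 groups did not. The log2 difference was 0.077 in cDC1 and -0.65 in cDC2 (SE 0.20 each), and the cDC1 sign turned without M-cDC1 replicate 1.

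Pou2f2 (chromosome 7, 24786769 to 24879151, minus strand) encodes Oct-2, a transcription factor of B cells that is also high in nonclassical monocytes. It had 0.712, 0.977 and 1.12 FPKM in L-cDC1, against 0.427, 0.584 and 0.536 FPKM in M-cDC1. In L-cDC2 Pou2f2 had 5.44, 4.72 and 4.89 FPKM, against 3.85, 4.38 and 3.93 FPKM in M-cDC2. Both L groups were above their M group without overlap, with ratios of means of 1.81 in cDC1 and 1.24 in cDC2. The log2 difference was 0.35 in cDC1 and 0.25 in cDC2 (SE 0.17 each); the cDC1 value was 0.74 with a pseudocount of 0.1. Summed B cell markers, which include immunoglobulin genes, were also higher in L libraries, and their part in the Pou2f2 level was not tested.

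Hmox1 (chromosome 8, 75820249 to 75827217, plus strand), haem oxygenase 1, which breaks haem down to biliverdin, iron and carbon monoxide, was the 1 gene of the 8 whose level was higher in cDC1 than in cDC2 in both L and M cells. It had 7.76, 21.2 and 24.4 FPKM in L-cDC1 and 16.3, 21.3 and 29.6 FPKM in M-cDC1. In L-cDC2 Hmox1 had 1.37, 3.62 and 4.0 FPKM, against 4.85, 6.44 and 4.86 FPKM in M-cDC2. Replicate 1 was the lowest library of each group, and the cDC1 groups overlapped while the cDC2 groups did not. The L minus M difference was -0.42 in cDC1 and -0.74 in cDC2, both with an SE of 0.37, the widest of the 8. Without L-cDC1 replicate 1 the cDC1 value was 0.058. Number by number, each L library was below the M library of its subset, though replicate 2 of cDC1 only slightly.

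**Figure D1:**
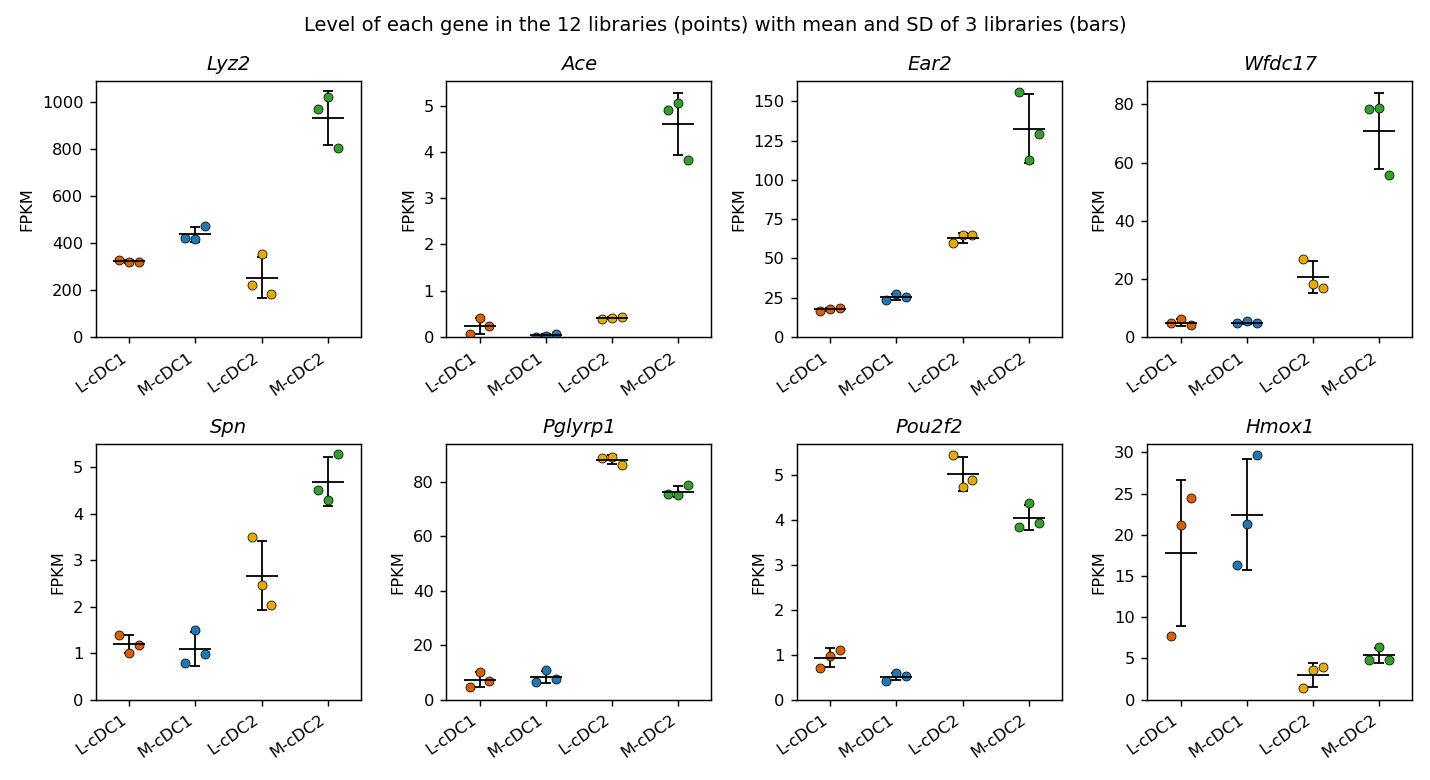
FPKM (vertical axes, each from 0) of the 8 genes in the 2 cDC1 and the 2 cDC2 groups, L left of M; points are the 3 libraries of a group, horizontal bars the mean and vertical bars the SD. Lyz2, Ace, Ear2, Wfdc17 and Spn peak in M-cDC2, Pglyrp1 and Pou2f2 in L-cDC2, and Hmox1 is highest in the cDC1 groups.

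Set side by side, the 8 genes showed little between L-cDC1 and M-cDC1 and more between L-cDC2 and M-cDC2. In cDC1, 2 of the 8 (Lyz2 and Ear2) were lower in every L-cDC1 library than in every M-cDC1 library, and 1 (Pou2f2) was higher; among all tested genes, 5.63% were lower and 8.28% higher without overlap. In cDC2, 6 of the 8 were lower in every L-cDC2 library and 2 (Pglyrp1 and Pou2f2) higher, against 6.92% and 9.96% of all tested genes. With limma over all genes, 0 of the 8 were called between L-cDC1 and M-cDC1, where 0.394% of genes were called and 0.0402% were called lower. Lyz2, Ace, Ear2 and Wfdc17 were called lower between L-cDC2 and M-cDC2, where 0.788% of genes were called lower and 1.04% higher. Nothing is read from these counts or from the medians that follow. The genes were chosen with these comparisons known, and Ace passed the filter only through M-cDC2. The median difference of the 8 was -0.0951 in cDC1 and -0.893 in cDC2, beside 0.0152 and 0.0271 over all tested genes.

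**Figure D2:**
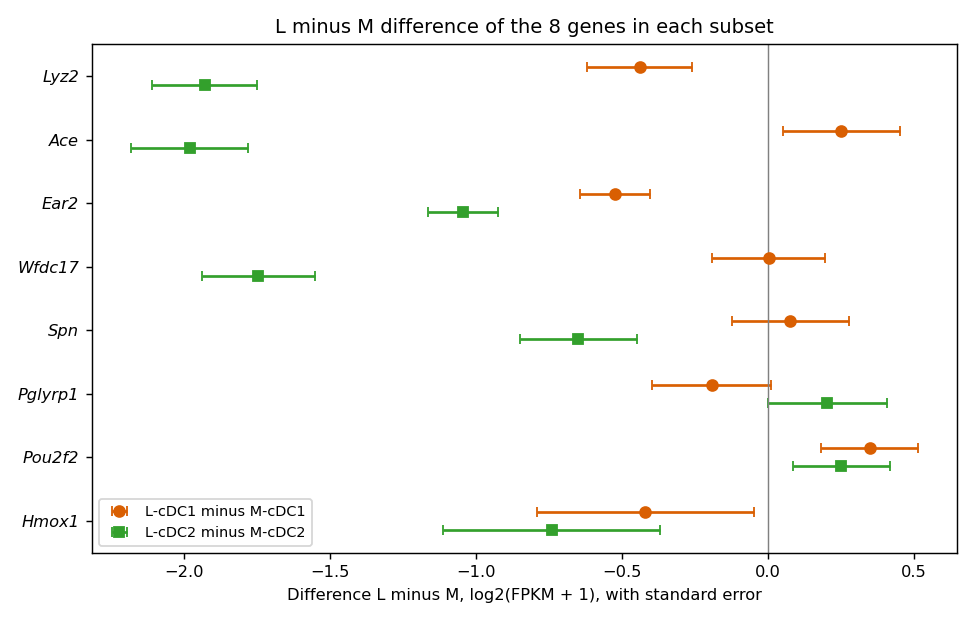
Difference on the log2(FPKM + 1) scale, L-cDC1 minus M-cDC1 (circles) and L-cDC2 minus M-cDC2 (squares), with standard errors, for each of the 8 genes. In cDC2 Lyz2, Ace and Wfdc17 lie between -1.98 and -1.75, while in cDC1 the 8 values lie between -0.52 and 0.35.

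The gap between the L minus M differences in cDC1 and in cDC2 was 2.23 for Ace (SE 0.28), 1.75 for Wfdc17 (SE 0.27) and 1.49 for Lyz2 (SE 0.25) on the log2 scale, a positive value meaning that the M excess was smaller, absent or turned in cDC1. These 3 were called by limma, where 0.193% of genes were called in that direction; nothing is read from this, since the genes were chosen with the comparison known and Ace passed the filter only through M-cDC2. The other gaps were 0.73 for Spn (SE 0.28), 0.52 for Ear2 (SE 0.17), 0.32 for Hmox1 (SE 0.53), 0.096 for Pou2f2 (SE 0.23) and -0.40 for Pglyrp1 (SE 0.29). The Hmox1 gap turned sign without L-cDC2 replicate 1.

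Between the subsets, most of the 8 genes were lower in cDC1 than in cDC2. Among M cells all but Hmox1 were lower in every M-cDC1 library than in every M-cDC2 library, which 34.2% of tested genes were; Hmox1 was higher in every M-cDC1 library, as were 16.9% of tested genes. With limma 1 of the 8 was called higher in M-cDC1 and 7 lower than in M-cDC2, where 38.1% of genes were called and 25.4% were called lower. Among L cells 5 were lower in every L-cDC1 library than in every L-cDC2 library (32.7% of tested genes were), and Lyz2 and Ace overlapped. With limma 1 of the 8 was called higher in L-cDC1 and 5 lower than in L-cDC2, where 39.5% of genes were called and 26.6% were called lower. These counts too were known when the 8 genes were chosen, and Ace passed the filter only through M-cDC2, so nothing is read from them. The log2 differences in M cells ran from -3.59 (Wfdc17, SE 0.19) and -3.07 (Pglyrp1, SE 0.20) to -1.08 (Lyz2, SE 0.18), with Hmox1 at 1.84 (SE 0.37). In L cells they ran from -3.47 (Pglyrp1, SE 0.20) to 0.41 (Lyz2, SE 0.18), with Hmox1 at 2.17 (SE 0.37); that of Ace was -0.20 (SE 0.20) and turned to 0.16 under quantile normalization. The L and M comparisons share no library. The all-gene median itself was -0.193 in L cells and -0.177 in M cells, and moved to -0.0354 and -0.026 under median-of-ratios scaling and to 0.0249 and 0.0442 under quantile normalization.

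Genes of the nonclassical monocyte list were mostly not called between L-cDC2 and M-cDC2, with 3 exceptions. Of 18 tested genes among the 20 listed, 0 rose and 3 fell in L-cDC2, and the median difference was -0.0261. Among all tested genes 1.04% were called higher and 0.788% lower in L-cDC2. This list and those below were chosen with earlier results of these data known. Counts and p-values of listed genes are therefore a description and no independent test of a fall of monocyte genes in L-cDC2. Adgre4, an adhesion receptor, averaged 4.64 ± 1.98 FPKM in L-cDC2 and 24.5 ± 1.95 FPKM in M-cDC2 (log2 difference -2.23, SE 0.25, limma adjusted p = 0.00020). Clec4a3, a C-type lectin receptor, averaged 19.6 ± 3.02 FPKM in L-cDC2 and 64.1 ± 4.33 FPKM in M-cDC2 (-1.67, SE 0.17, limma adjusted p = 0.00011). Cx3cr1, the fractalkine receptor, averaged 2.22 ± 1.11 FPKM in L-cDC2 and 7.10 ± 1.88 FPKM in M-cDC2 (-1.37, SE 0.27, limma adjusted p = 0.016). With a pseudocount of 0.1 none of the 3 passed, at limma adjusted p of 0.0813 for Adgre4, 0.146 for Clec4a3 and 0.202 for Cx3cr1; Cx3cr1 also failed without the filter (0.0735), without M-cDC2 replicate 1 (0.0698) and without M-cDC2 replicate 2 (0.102). Their lowest adjusted p over the 18 alternatives were 0.000161, 4.9e-05 and 0.0146. Treml4, a receptor for dying cells, did not pass, at 66.6 ± 5.57 FPKM in L-cDC2 and 86.8 ± 16.8 FPKM in M-cDC2 (limma adjusted p = 0.27). Nr4a1 itself, named here after its values were seen, had 111 ± 12 FPKM in L-cDC2 and 105 ± 15.3 FPKM in M-cDC2 (limma adjusted p = 0.92). Fcgr4 and Slc12a2, also named after their values were seen, were not called but did not overlap. Fcgr4 was lower in L-cDC2, at 3.86 ± 2.05 FPKM, against 7.17 ± 0.744 FPKM in M-cDC2. Slc12a2 was higher in L-cDC2, at 5.87 ± 0.525 FPKM, against 4.63 ± 0.391 FPKM in M-cDC2.

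Genes shared by monocytes and macrophages included 5 that fell in L-cDC2, of 18 tested among 22 listed, with a median of -0.379 and 0 that rose. With limma-voom 8 fell. The share of all tested genes called lower in L-cDC2 by limma was 0.788%. Csf1r, the receptor for the macrophage growth factor CSF-1, had 20.9, 24.0 and 27.4 FPKM in L-cDC2, against 64.1, 67.8 and 64.0 FPKM in M-cDC2 (log2 difference -1.41, SE 0.15, limma adjusted p = 0.00011). Aif1, a calcium-binding protein of the actin cytoskeleton, averaged 7.71 ± 1.63 FPKM in L-cDC2 and 19.7 ± 1.86 FPKM in M-cDC2 (-1.26, SE 0.15, limma adjusted p = 0.00031). Lgals3, or galectin-3, averaged 43.0 ± 6.09 FPKM in L-cDC2 and 98.8 ± 20.2 FPKM in M-cDC2 (-1.17, SE 0.15, limma adjusted p = 0.00045). Tgfbi, a secreted matrix protein, averaged 53.1 ± 1.82 FPKM in L-cDC2 and 112 ± 4.3 FPKM in M-cDC2 (-1.06, SE 0.14, limma adjusted p = 0.00059). These 4 passed in all 18 alternatives, at adjusted p of at most 0.0238. The list was chosen with earlier results of these data known, so its p-values too are a description only. Fcer1g, the common signalling chain of Fc receptors, also fell in L-cDC2 (776 ± 60.7 FPKM, against 1103 ± 119 FPKM in M-cDC2; -0.50, SE 0.11, limma adjusted p = 0.034); it was named after its values were seen and failed in 8 alternatives, among them leaving out L-cDC2 replicate 2 (0.153) or M-cDC2 replicate 2 (0.162). Fcer1g was the 1 gene of the list called lower in L-cDC1, and 0 were called higher. It averaged 27.6 ± 2.31 FPKM in L-cDC1, against 57.5 ± 6.31 FPKM in M-cDC1 (-1.03, SE 0.11, limma adjusted p = 0.00068). Csf1r, Tyrobp and Lst1 were not called there but were lower in every L-cDC1 library than in every M-cDC1 library. Csf1r averaged 1.27 ± 0.264 FPKM in L-cDC1 and 2.47 ± 0.468 FPKM in M-cDC1. With a pseudocount of 0.1 that difference passed (limma adjusted p = 0.0435).

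Of the classical monocyte list, 7 of 16 genes were tested, and among those reported here 2 fell in L-cDC2. Over all tested genes 0.788% were called lower in L-cDC2. Ccr2, the chemokine receptor by which classical monocytes leave the marrow, fell to 1.85 ± 0.298 FPKM in L-cDC2, against 7.35 ± 0.671 FPKM in M-cDC2 (log2 difference -1.55, SE 0.17, limma adjusted p = 0.00015, at most 0.00169 over the alternatives). Plac8 fell to 163 ± 7.53 FPKM in L-cDC2, against 217 ± 19 FPKM in M-cDC2 (-0.41, SE 0.089, limma adjusted p = 0.028). Plac8 failed when any of 5 libraries was left out (each of L-cDC2, and M-cDC2 replicates 1 and 3, up to 0.141). The classical list was likewise chosen with earlier results of these data known, so the p-values of Ccr2 and Plac8 are no independent test. In cDC1, 0 genes of the nonclassical and 0 of the classical list passed between L-cDC1 and M-cDC1 with limma or limma-voom, and 3 and 4 had an unadjusted limma p under 0.05.

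**Figure D3:**
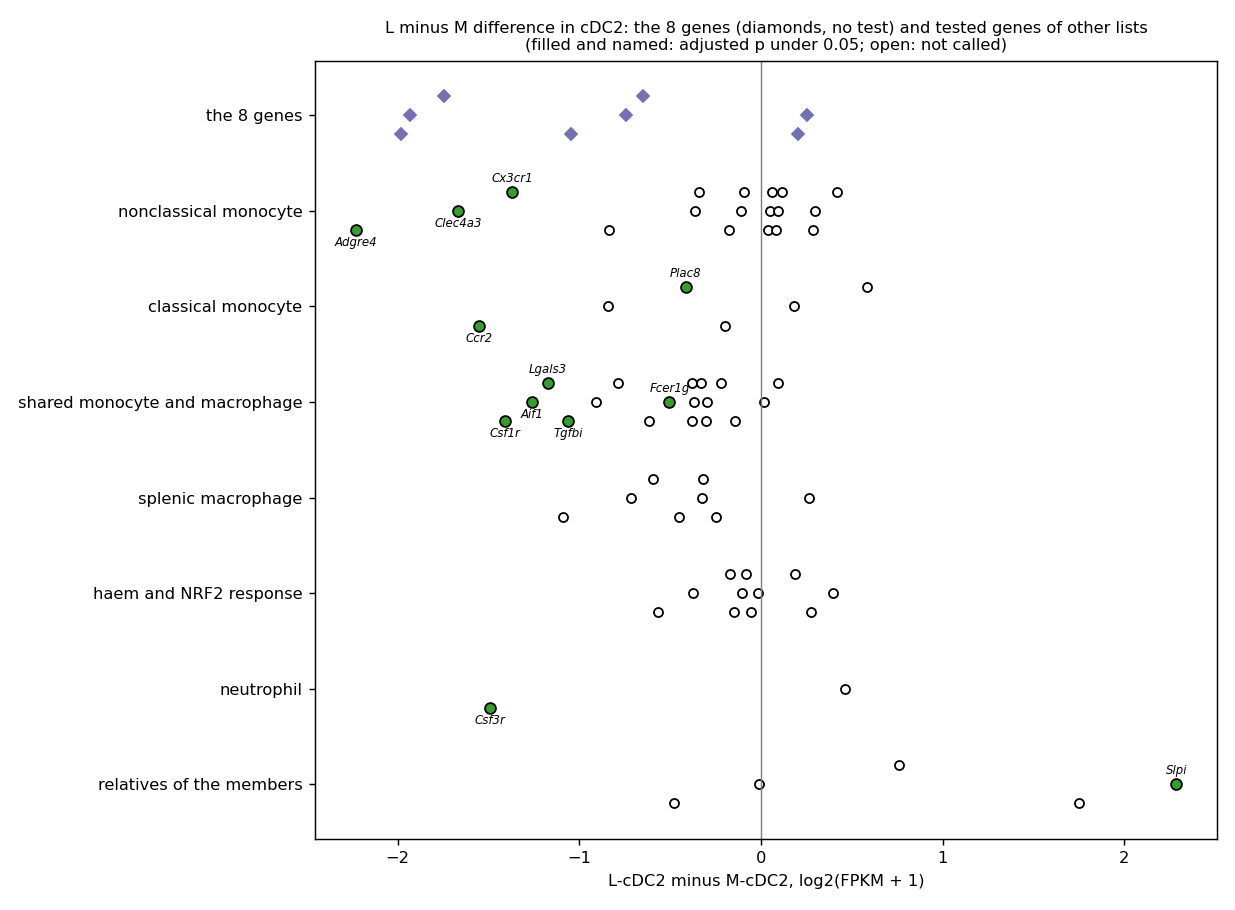
L-cDC2 minus M-cDC2 difference on the log2(FPKM + 1) scale for the 8 genes (diamonds, no test) and for tested genes of 7 lists; filled and named circles were called by limma, open circles were not, and the small vertical offsets only separate points. The called genes plotted for the 3 monocyte lists lie below 0, most open circles lie near 0, and Slpi, a relative of Wfdc17, lies at 2.29. The 3 listed genes not reported here are not plotted, so the plotted points do not give the direction of whole lists.

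Other genes that define monocytes and macrophages were spread widely in level. Cd68, a lysosomal glycoprotein, averaged 393 ± 23.7 FPKM in L-cDC2 and 434 ± 11.7 FPKM in M-cDC2, Ms4a4c 148 ± 9.58 and 130 ± 9.06 FPKM, and Adgre1, or F4/80, 94.9 ± 6.17 and 119 ± 15.2 FPKM, in the same order. In no group did Vcan, Fn1, F13a1, Hp, Mertk or C5ar1 average above 0.215 FPKM, and Apoc2 was listed at 0 in all 12 libraries. Ly6c2, which marks classical monocytes, averaged 1.92 ± 0.768 FPKM in L-cDC2 and 0.945 ± 0.504 FPKM in M-cDC2. The summed level of the shared monocyte and macrophage list was 4266 to 4646 FPKM in L-cDC2 and 5375 to 6193 FPKM in M-cDC2, that of the nonclassical list 932 to 997 and 1009 to 1085 FPKM, and that of the classical list 424 to 484 and 478 to 534 FPKM, again with L-cDC2 first. Whether a few cells of another type, or less RNA per cell, lie behind a lower level cannot be told apart in bulk samples, and the part of these markers in the levels of Lyz2, Ace, Ear2, Wfdc17 and Spn was not tested.

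Markers of other cells moved with some groups. The summed B cell list was 597 to 947 FPKM in L-cDC1 and 304 to 352 FPKM in M-cDC1, and 910 to 3376 FPKM in L-cDC2 against 352 to 377 FPKM in M-cDC2. The T and NK cell list, which bears on Spn, summed to 13 to 21.3 FPKM in L-cDC1 and 0.474 to 1.1 FPKM in M-cDC1, and to 42.9 to 116 FPKM in L-cDC2 against 2.07 to 2.48 FPKM in M-cDC2. Of 12 genes in each list, 10 B cell and 9 T and NK cell genes were tested. Of these, 9 B cell and 7 T and NK cell genes rose in L-cDC2 and 8 and 3 in L-cDC1, and none fell. Among all tested genes 1.04% were called higher in L-cDC2 and 0.354% in L-cDC1. The list counts in L-cDC1 were 3 and 3 with limma-voom and 4 and 0 without the filter on low values. Their part in the Spn level was not tested. The pDC list summed to 79.1 to 117 FPKM in L-cDC2 and 43.7 to 47.8 FPKM in M-cDC2, and to 70.8 to 90.1 FPKM in L-cDC1 and 61.5 to 73.3 FPKM in M-cDC1; Ly6d was its 1 gene that rose, in both subsets.

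The neutrophil list, which bears on Lyz2 and Pglyrp1, summed to 3.13 to 4.40 FPKM in L-cDC2 and 5.40 to 11.3 FPKM in M-cDC2, and to at most 2.90 FPKM in the cDC1 libraries. Of its 13 genes 2 were tested, and Csf3r, the G-CSF receptor, fell to 2.21 ± 0.776 FPKM in L-cDC2, against 8.27 ± 3.15 FPKM in M-cDC2 (log2 difference -1.49, SE 0.27, limma adjusted p = 0.0083); it failed with a pseudocount of 0.1 (0.106) and without M-cDC2 replicate 2 (0.0598). Of the defining neutrophil genes, S100a8 averaged 0.481 FPKM in L-cDC2 and was listed at 0 in M-cDC2, and S100a9 was listed at 0 in L-cDC2 and averaged 0.201 FPKM in M-cDC2. The part of these markers in the Lyz2 and Pglyrp1 levels was not tested. For the eosinophil list, which bears on Ear2, Epx was listed at 0 in all L-cDC2 and M-cDC2 libraries, and Prg2 averaged 3.10 ± 1.92 FPKM in L-cDC2 and 0.385 ± 0.312 FPKM in M-cDC2 (limma adjusted p = 0.044, 0.0192 to 0.272 over the alternatives, lost in 13 of 18); their part in the Ear2 level was not tested. The splenic macrophage list, which bears on Hmox1, summed to 17.8 to 20.1 FPKM in L-cDC1, 17.8 to 24.1 FPKM in M-cDC1, 117 to 136 FPKM in L-cDC2 and 159 to 190 FPKM in M-cDC2, and its part in the Hmox1 level was not tested. None of its 8 tested genes (0 of 8) passed between L and M cells in either subset with limma or limma-voom, and 0 in cDC1 and 2 in cDC2 had an unadjusted limma p under 0.05.

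**Figure D4:**
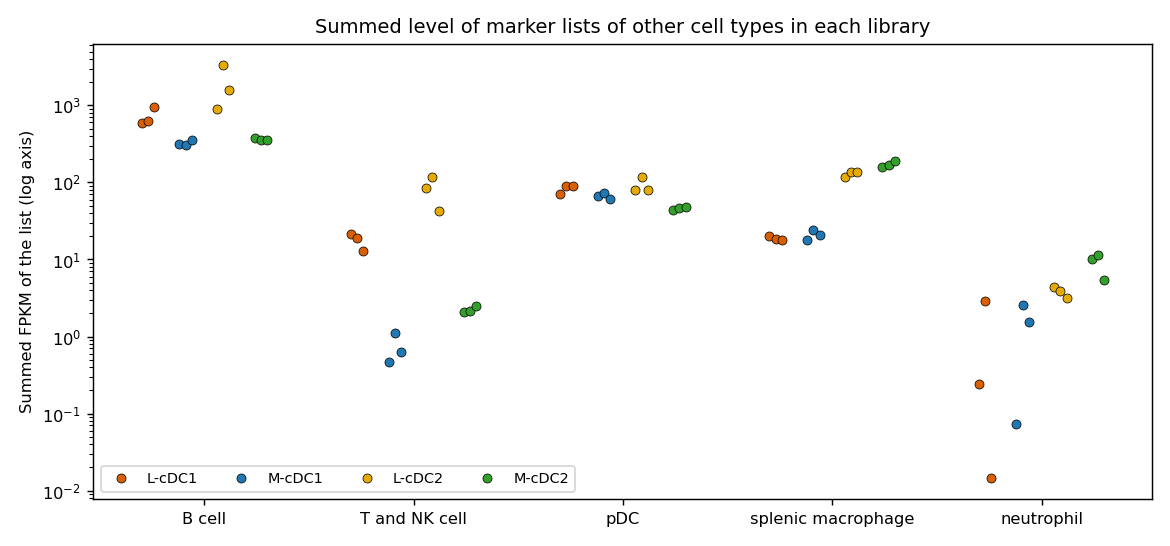
Summed FPKM (log axis) of 5 marker lists in each library, grouped by list, with the cDC1 groups left of the cDC2 groups and L left of M within a list. The B cell and T and NK cell sums are higher in L than in M libraries of both subsets, and the splenic macrophage sum is at least 117 FPKM in every cDC2 library and at most 24.1 FPKM in every cDC1 library.

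Of 13 listed genes that act with Hmox1 in haem and iron handling or under the stress factor NRF2, 11 were tested, and 0 passed with limma between L-cDC1 and M-cDC1 or between L-cDC2 and M-cDC2, with medians of 0.0516 and -0.0836. In cDC1 2 and in cDC2 1 had an unadjusted limma p under 0.05, and with limma-voom 1 and 0 passed. Nfe2l2, the gene of NRF2, was not called but was lower in every L-cDC2 library than in every M-cDC2 library. It averaged 14.7 ± 0.627 FPKM in L-cDC2 and 22.3 ± 1.69 FPKM in M-cDC2 (limma adjusted p of 0.0394 to 0.307 over the alternatives). Between cDC1 and cDC2, 2 genes of the list rose and 3 fell in L cells and 1 rose and 4 fell in M cells. Among all tested genes 12.9% were called higher and 26.6% lower in L cells, and 12.7% and 25.4% in M cells. No subset pattern of the list is read from these counts. Bach1, the repressor of Hmox1, was lower in cDC1, at 1.26 ± 0.223 FPKM in L-cDC1 and 5.25 ± 1.96 FPKM in L-cDC2 (log2 difference -1.42, SE 0.24, limma adjusted p = 0.00032), and at 1.58 ± 0.498 FPKM in M-cDC1 and 5.13 ± 0.705 FPKM in M-cDC2 (-1.26, SE 0.24, limma adjusted p = 0.00089). Blvrb, a biliverdin reductase, averaged 1.83 ± 0.185 FPKM in L-cDC1 and 7.37 ± 1.58 FPKM in L-cDC2 (-1.55, SE 0.21, limma adjusted p = 4.3e-05). Fth1, the ferritin heavy chain, averaged 412 ± 20.7 FPKM in L-cDC1 and 674 ± 34 FPKM in L-cDC2 (-0.71, SE 0.088, limma adjusted p = 2.1e-05). These calls of Bach1, Blvrb and Fth1 held in all 18 alternatives, at adjusted p of at most 0.00706. In M cells Blvrb averaged 2.56 ± 0.638 FPKM in M-cDC1 and 5.36 ± 1.25 FPKM in M-cDC2. That call was lost under quantile normalization (limma adjusted p = 0.0712). Gclc, the catalytic subunit of the enzyme that starts glutathione synthesis, had 15.9, 15.3 and 26.1 FPKM in L-cDC1, against 7.39, 4.75 and 5.76 FPKM in M-cDC1, without overlap (1.5, SE 0.31, limma adjusted p = 0.063, 0.0276 to 0.312 over the alternatives). Gclc passed in L cells between L-cDC1 and L-cDC2 (4.82 ± 1.99 FPKM in L-cDC2; 1.80, SE 0.31, limma adjusted p = 0.00045). Ftl1, the ferritin light chain, named after its values were seen, averaged 1942 ± 241 FPKM in L-cDC1 and 1335 ± 55.6 FPKM in L-cDC2 (0.53, SE 0.11, limma adjusted p = 0.0018), and 1862 ± 133 FPKM in M-cDC1 and 1486 ± 203 FPKM in M-cDC2 (0.33, SE 0.11, limma adjusted p = 0.031). Under quantile normalization neither passed (limma adjusted p = 0.13 in L cells and 0.821 in M cells, where the sign turned), and in M cells it also failed without the filter (0.189) and without M-cDC1 replicate 2 (0.0522) or 3 (0.109) or M-cDC2 replicate 2 (0.115) or 3 (0.0974).

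Close relatives of the 8 genes gave mixed patterns. Of 15 listed, 5 were tested. Lyz1, the Paneth-cell lysozyme that shares 15.4% of the 50-base stretches of Lyz2, averaged 22.1 ± 6.31 FPKM in L-cDC1, 23.5 ± 2.87 FPKM in M-cDC1, 12.8 ± 5.01 FPKM in L-cDC2 and 17.9 ± 5.85 FPKM in M-cDC2, and did not pass between L-cDC2 and M-cDC2 (log2 difference -0.48, SE 0.27, limma adjusted p = 0.60). Slpi, a WAP-domain inhibitor of neutrophil proteases, rose to 6.00 ± 2.79 FPKM in L-cDC2, against 0.379 ± 0.285 FPKM in M-cDC2 (2.29, SE 0.35, limma adjusted p = 0.0028, at most 0.0298 over the alternatives), the opposite of the Wfdc17 difference. Pglyrp2, an amidase that cleaves peptidoglycan, shared the subset pattern of Pglyrp1, at 0.401 ± 0.455 FPKM in L-cDC1 and 12.6 ± 2.08 FPKM in L-cDC2 (-3.32, SE 0.22, limma adjusted p = 3.3e-08), and 0.0207 ± 0.0183 FPKM in M-cDC1 and 6.98 ± 0.0541 FPKM in M-cDC2 (-2.97, SE 0.22, limma adjusted p = 1.1e-07). Hmox2, the constitutive haem oxygenase, averaged 40.3 ± 1.37 FPKM in L-cDC1, 44.1 ± 1.71 FPKM in M-cDC1, 56.0 ± 1.6 FPKM in L-cDC2 and 56.8 ± 7.9 FPKM in M-cDC2, opposite to Hmox1 between subsets; its calls between subsets were lost with median-of-ratios scaling (limma adjusted p = 0.0628 in L cells and 0.305 in M cells). Pou2af1, the B cell coactivator of Pou2f2, had 0.0823, 6.57 and 3.63 FPKM in L-cDC2 and was listed at 0 in all M-cDC2 libraries (limma adjusted p = 0.15, and 0.00048 without L-cDC2 replicate 1). Ear1, Ear6, Ear10, Pglyrp3, Pglyrp4, Pou2f1, Pou2f3, Wfdc18 and Wfdc21 did not pass the filter.

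The genes whose level followed Lyz2 most closely over the 12 libraries, among 6729 others with a mean of at least 5 FPKM, were Rab9 (Pearson r = 0.867), Calhm6 (0.853), Emd (0.827), Arl5c (0.823) and Sord (0.812). The genes most like Ace were Clec7a (0.930), Adgre4 (0.928), Arl5c (0.917), Wfdc17 (0.913) and Neu1 (0.912). Clec7a, the beta-glucan receptor Dectin-1, averaged 1.93 FPKM in L-cDC1, 1.46 FPKM in M-cDC1, 6.90 FPKM in L-cDC2 and 27.9 FPKM in M-cDC2. Calhm6, a channel protein, averaged 15.9 FPKM in L-cDC1, 17.4 FPKM in M-cDC1, 8.49 FPKM in L-cDC2 and 26.1 FPKM in M-cDC2. Among the 8 genes, r with Ace was 0.855 for Spn, 0.851 for Ear2, 0.795 for Lyz2 and -0.41 for Hmox1, and r with Lyz2 was 0.19 for Pglyrp1 and 0.052 for Hmox1. The 12 points share group means and depth, so these values only describe likeness of pattern.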

How the data were processed

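RNA of conventional dendritic cells sorted from mouse spleen was sequenced in 12 libraries. Per the labels' protocols, the RNeasy micro kit gave the RNA, SMART-Seq HT the cDNA and Nextera XT the libraries, and none of these marks strand. The authors deposited 1 table of FPKM values for 55322 genes. Tools named in the submitters' processing notes, without their roles, were the aligner STAR 2.7.9a, the counter featureCounts 2.0.1, the trimmers cutadapt 3.7, Trim Galore 0.6.7 and Trimmomatic 0.39, and DESeq2 1.20.0. The genome build behind the table is not given in the sources used here. Those notes name the human build GRCh38, and none of the 8 genes (0 of 8) starts within 100 bases of its GENCODE M21 start. Coordinates of the genes are therefore those of the table.

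FPKM steps gave back whole reads for 100% of values within 0.01 read, with totals of 15879864 to 24498235 reads per library. Precision at low levels follows from this depth: a count of 3 reads on 1 kb of exon equals 0.122 FPKM at the highest depth and 0.189 FPKM at the lowest. Reads carry no molecular identifiers, so such floors cover counting error only.

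The 12434 genes that reached 1 FPKM in 3 or more libraries were transformed as log2(FPKM + 1) and fitted with limma 3.58.1 (R 4.3.3), using eBayes with trend, 1 mean per group and 8 residual degrees of freedom. P-values were adjusted by the Benjamini-Hochberg method within a contrast over the 12434 genes; called means below 0.05 after this adjustment. A difference on this scale understates the change of a low gene. The procedure was tested on simulated data. Groups follow the sample titles. The 8 genes and all gene lists were chosen with earlier results of these data known. The 8 genes are therefore described with standard errors and no p-value. Other genes named are, by rule, up to 4 of each list with the smallest p in a contrast, every called gene of a list for another cell type, the relatives of the 8 genes, and the 5 genes most like Lyz2 or Ace. Alternatives were a pseudocount of 0.1, no filter, 2 other scalings, limma-voom with median-of-ratios factors on recovered reads (chosen after seeing the data), the replicate number as a term, and leaving out each library. Results of 3 listed genes are not reported here.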

Additional observations from a re-analysis of the deposited data

Results flagged for a closer look

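By limma, 37 of all 12434 genes were called for a gap between the L minus M difference in cDC1 and that in cDC2 (cDC1 minus cDC2, log2 scale). Besides Lyz2, Ace and Wfdc17, 4 genes of the lists were among them; Clec7a and Arl5c were too, but had been chosen for likeness to Ace or Lyz2. The lists had been chosen with earlier results of these data known, so the p-values that follow are a description. For Clec4a3 the value was 1.88 (SE 0.25, limma adjusted p = 0.0067), which did not pass with limma-voom (0.451) or a pseudocount of 0.1 (0.240). For Adgre4 it was 2.37 (SE 0.36, limma adjusted p = 0.014), which did not pass with limma-voom (0.244), a pseudocount of 0.1 (0.279), no filter (0.0652) or without M-cDC2 replicate 2 (0.0577). For Lgals3 it was 1.17 (SE 0.21, limma adjusted p = 0.029), which did not pass in 12 alternatives, among them limma-voom (0.0579) and no filter (0.148). For Gzma, a granzyme of T and NK cells, it was -3.20 (SE 0.60, limma adjusted p = 0.043), which did not pass in 16 of 18 alternatives, among them the replicate block (0.0795), no filter (0.231), median-of-ratios scaling (0.063), quantile normalization (0.0757) and limma-voom (0.552).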

How the results depend on the processing

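Of 720 recomputed differences of the 8 genes, 681 moved by less than 1 residual SD and 39 by more, and the sign turned only for the values of Wfdc17, Spn, Pglyrp1, Hmox1 and Ace so named in the text. Genes called between L-cDC1 and M-cDC1 numbered 49, and 14 without the filter, 80 with a pseudocount of 0.1 and 24 to 102 when 1 library was left out. Between L-cDC2 and M-cDC2 they numbered 227 (146 to 232 with 1 library left out). For the difference between subsets they numbered 37, and 9 with limma-voom, 21 with a pseudocount of 0.1 and 10 to 38 with 1 library left out. Genes called between cDC1 and cDC2 numbered 4913 in L cells and 4736 in M cells. They split into 1605 higher and 3308 lower in L cells (2252 and 2371 with median-of-ratios scaling), and 1573 and 3163 in M cells (2176 and 2269). The 3 nonclassical monocyte genes called between L-cDC2 and M-cDC2 became 0 with a pseudocount of 0.1, and 2 to 3 with 1 library left out; between L-cDC1 and M-cDC1 the count was 0, and 0 to 1. The Ftl1 difference between M-cDC1 and M-cDC2 turned to -0.0503 under quantile normalization. The causes were not tested. Limma-voom took this form after the data were seen, and the planned version with TMM factors was not run. Depth limits Ace in cDC1, where 3 libraries held 0, 3 and 8 reads.

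Same-numbered libraries of different groups had correlated deviations of -0.0101 to 0.156, above 0.1 in 3 of 18 pairs. The other 36 pairs had -0.153 to 0.0885, and 11 of 12 libraries were closest to their own number. The main fit did not take the numbers as pairs, and what same-numbered libraries shared was not tested. With the replicate block, 45 genes were called between L-cDC1 and M-cDC1, 233 between L-cDC2 and M-cDC2, 4952 and 4754 between cDC1 and cDC2 in L and M cells, 25 for the difference between subsets, and 0 and 3 of the nonclassical list.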
